A study of Mus musculus with 49 samples.

Results

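Proteasome subunit genes were followed in whole urinary bladders of mice given arsenate, a pentavalent form of inorganic arsenic, in their drinking water. The mice were C57Bl/J females. The genes were all those whose symbol starts with Psma, Psmb, Psmc or Psmd followed by a number and that had a probe set of their own on the Affymetrix Mouse430_2 array. A probe set is a group of short probes read as 1 signal. The rule found 40 of the 18194 genes with such a probe set, and 38 of them were bright enough to be among the 14619 genes tested. The remaining 2, the testis alpha subunit Psma8 and the thymus beta subunit Psmb11, were dim, with mean log2 signals of 5.25 for both, and were not tested. Psmc3ip met the rule by its name but encodes a meiotic recombination factor and no subunit. Psmd5, Psmd9 and Psmd10 encode chaperones of base assembly, so 34 of the 38 genes encode subunits.

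Arsenate was given at 0, 0.5, 2, 10 or 50 ppm for 1 week or for 12 weeks, and the mice were 76 and 155 days old when killed. Each of the 49 arrays held the RNA of 1 mouse, with 5 mice per group and 4 at 0.5 ppm for 1 week. The 0 ppm mice of the same harvest, which drank water alone, were the control of every dose, so comparisons within a harvest share their control arrays. Harvest and age cannot be told apart, and neither can the dose group and the first number of the mouse label, whose meaning the labels leave unstated. The bladders were whole, so fewer cells of a type and less RNA per cell cannot be told apart.

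The proteasome degrades proteins tagged with ubiquitin. Its core is a barrel of outer alpha rings, which gate the entry, and inner beta rings, in which Psmb5, Psmb6 and Psmb7 carry the protein-cutting sites. The regulatory cap binds ubiquitin chains, removes them and unfolds the protein with a ring of ATPases encoded by the Psmc genes. Most of the Psmd genes encode the remaining subunits of the cap. Interferon induces Psmb8, Psmb9 and Psmb10, which replace Psmb5, Psmb6 and Psmb7 in the immunoproteasome, a form that is abundant in leukocytes and trims peptides for antigen presentation. When proteasome activity is impaired, the factor Nfe2l1 is known to raise proteasome gene transcription through antioxidant response elements, which Nfe2l2 also binds.

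The promoters of both members of the first and second exchange pair are shown, because these genes carry the comparison of constitutive with inducible catalytic subunits. The sequences are from RefSeq, build GRCm38.p6, and each runs 5′ to 3′ over 300 bases that end just after the annotated start. Capitals mark TGACNNNGC, the core of the antioxidant response element, in Psmb5 and Psmb6, TTCNNNGAA, the STAT site of interferon responses, in Psmb8, and CCAAT, read on the other strand, in Psmb9.

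Psmb5, chr14:54617946-54618245, minus strand: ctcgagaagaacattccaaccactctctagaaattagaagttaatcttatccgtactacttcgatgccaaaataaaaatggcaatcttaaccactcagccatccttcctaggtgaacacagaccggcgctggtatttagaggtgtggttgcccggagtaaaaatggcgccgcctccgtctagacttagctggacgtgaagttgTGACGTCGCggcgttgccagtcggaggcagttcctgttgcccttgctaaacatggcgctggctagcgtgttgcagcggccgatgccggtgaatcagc

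Psmb6, chr11:70525107-70525406, plus strand: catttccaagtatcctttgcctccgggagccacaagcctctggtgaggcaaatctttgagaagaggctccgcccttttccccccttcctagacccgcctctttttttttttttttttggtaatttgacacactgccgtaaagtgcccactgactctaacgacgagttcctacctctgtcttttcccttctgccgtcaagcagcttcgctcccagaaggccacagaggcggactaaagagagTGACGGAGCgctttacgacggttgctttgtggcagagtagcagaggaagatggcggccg

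Psmb8, chr17:34197945-34198244, plus strand: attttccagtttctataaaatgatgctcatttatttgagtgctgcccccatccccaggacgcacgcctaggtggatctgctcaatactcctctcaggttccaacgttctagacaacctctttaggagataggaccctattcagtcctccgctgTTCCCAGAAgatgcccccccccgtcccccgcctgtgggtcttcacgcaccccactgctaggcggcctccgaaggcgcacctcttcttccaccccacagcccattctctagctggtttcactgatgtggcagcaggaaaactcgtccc

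Psmb9, chr17:34187281-34187580, minus strand: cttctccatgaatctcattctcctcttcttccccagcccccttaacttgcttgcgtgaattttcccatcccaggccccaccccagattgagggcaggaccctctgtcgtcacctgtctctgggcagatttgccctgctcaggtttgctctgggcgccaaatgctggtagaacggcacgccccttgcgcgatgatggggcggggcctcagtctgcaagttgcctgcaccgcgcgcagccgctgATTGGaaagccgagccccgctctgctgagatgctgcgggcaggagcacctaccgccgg

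Of the 40 genes, 33 matched a promoter in the RefSeq table. TGACNNNGC was found on either strand in 5 of the 33 genes, Psmb5, Psmb6, Psmc6, Psmd9 and Psmd12, while 12.4% of 32851 promoters of the same length held it. In Psmb5 the match began at base 204 of the 300 shown, and in Psmb6 at base 242. GAAANNGAA, the core of the interferon-stimulated response element, was found in 5 genes, Psmb3, Psmb4, Psmc2, Psmd4 and Psmd9, and in 8.56% of all promoters. TTCNNNGAA was found in Psmb8 and Psmd2, and in 8.3% of all promoters. CCAAT, the site of the general factor NF-Y, was found in 14 genes and in 37.4% of all promoters. None of these motifs contains another, and each match describes letters in this window only.

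Signals were compared as log2(signal + 16), where a difference of 1 is a doubling. The median within-group SD was 0.15 for the 38 genes against 0.258 over all genes tested. These medians were not compared at like brightness, and the dim Psma8 and Psmb11 had within-group SDs of 0.56 and 0.69. The mean signal ranged from 7.54 for Psmc3ip to 13.64 for Psmb7, which are levels of different probe sets and do not rank the genes. Psmd11, a scaffold subunit of the cap, had the smallest within-group SD of the tested genes of the family at 0.0823, and the ATPase gene Psmc6 had the largest at 0.398. A gene is called changed where limma gave an adjusted p under 0.05 over all genes tested.

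Some features of the arrays moved with the groups. All 12 urothelium, 8 smooth muscle and 6 fibroblast markers passed the filter on dim signals. The 7 liver markers, which include Alb, averaged 9.09 in the 1-week water group, with arrays from 7.57 to 10.09, and 6.79 in the 12-week water group, with arrays from 6.62 to 6.95. At 1 week the liver marker mean was 8.45 at 0.5 ppm, 8.83 at 2 ppm, 7.78 at 10 ppm and 6.92 at 50 ppm. At 12 weeks the poly-A control RNAs, which are added before labelling, averaged 10.71 on the log2 scale in water, 10.30 at 0.5 ppm, 10.21 at 2 ppm, 9.65 at 10 ppm and 9.84 at 50 ppm. The hybridization control probe sets averaged 11.20, 11.34, 11.31, 11.76 and 11.72 in the same order. Their arrays ran from 11.09 to 11.32 in water, from 11.39 to 12.04 at 10 ppm and from 11.37 to 12.23 at 50 ppm. Every array at 10 and 50 ppm was thus above every water array. These controls were not used as a covariate. Array 1 of the 0.5 ppm group at 12 weeks stood apart, with a mean over the 14 core genes of 12.43 against 12.63 to 12.69 on its other arrays.

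At 12 weeks, 3 of the 38 genes were higher at 50 ppm than in water: Psma3 of the alpha ring, Psmb2 of the beta ring and Psmd6 of the cap. That is 7.89% of the genes, beside 2.29% of all genes tested that were called higher. The changes were 1.18-fold for Psma3 and 1.29-fold for Psmd6, with Psmb2 between them. No gene of the family was called lower, beside 1.77% of all genes, and the median change of the 38 genes was -0.001, against -0.036 over all genes tested. None of the 3 genes encodes a catalytic subunit of the core. In the same comparison all 8 smooth muscle markers (median 0.30), all 6 fibroblast markers (median 0.26) and 4 of 5 endothelium markers (median 0.329) lay above water, as did 6 of 12 urothelium markers (median 0.031), and none of these was called. All 4 mesothelium markers (median -0.259) and all 3 fat markers tested (median -0.41) lay below water, of which the mesothelium marker Lrrn4 was called (-0.59, SE 0.17, limma adjusted p 0.0424).

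The 3 calls depended on the processing. Of 14 alternative settings Psma3 lost its call under 3, Psmd6 under 5 and Psmb2 under 7. With the poly-A level as a covariate none of the 3 was called, with changes of 0.25 for Psma3, 0.48 for Psmb2 and 0.17 for Psmd6 and limma adjusted p of 0.271, 0.16 and 0.725. Adjusted for the liver markers' mean, again none was, at 0.24, 0.32 and 0.36 (limma adjusted p 0.0619, 0.101 and 0.0963). With the mean of all probe sets of a gene the changes of Psma3, Psmb2 and Psmd6 were 0.19, 0.32 and 0.20 (limma adjusted p 0.303, 0.0582 and 0.241). Adjusted for RNA integrity, Psma3 alone was called, and with the urothelium marker mean all 3 were. The liver and urothelium covariates were chosen after seeing the data. The poly-A level itself moved with dose at 12 weeks, with arrays from 10.21 to 11.17 in water and from 9.51 to 10.46 at 50 ppm. A call lost with that covariate therefore cannot decide whether the gene changed.

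Psma3 encodes a subunit of the outer ring. In water at 12 weeks its log2 signals were 13.37, 13.29, 13.26, 13.33 and 13.30. At 0.5 ppm they were 13.27, 13.19, 13.28, 13.30 and 13.29, and at 2 ppm 13.19, 13.27, 13.29, 13.33 and 13.30. These 3 groups overlapped. At 10 ppm the signals were 13.45, 13.55, 13.44, 13.48 and 13.53, and at 50 ppm 13.41, 13.62, 13.52, 13.58 and 13.62. Every mouse at 10 and 50 ppm was above every water mouse of that harvest. The log2 change at 50 ppm was 0.24 (SE 0.058, 95% interval 0.12 to 0.36, limma adjusted p 0.0249). At 10 ppm it was 0.18 (SE 0.058), which missed the threshold with a limma adjusted p of 0.124. Leaving out each array in turn left the change of Psma3 at 50 ppm between 0.22 and 0.28 and ended the call in 5 of 10 fits, with adjusted p up to 0.0704. A second, dimmer probe set of Psma3, with a mean of 8.15, gave 0.14 at 50 ppm and -0.21 at 10 ppm.

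Psmb2 encodes a beta subunit without a cutting site and had 1 probe set. Its log2 signals at 12 weeks were 11.61, 11.56, 11.49, 11.32 and 11.67 in water. They were 11.25, 11.54, 11.49, 11.31 and 11.59 at 0.5 ppm and 11.51, 11.55, 11.61, 11.65 and 11.32 at 2 ppm. At 10 ppm they were 11.79, 11.93, 11.75, 12.14 and 11.91, and at 50 ppm 11.78, 11.74, 11.92, 11.76 and 12.04. The mice at 10 and 50 ppm were all above the water mice, and those at 0.5 and 2 ppm overlapped with them. The log2 change was 0.37 at 10 ppm (SE 0.092, limma adjusted p 0.0624) and 0.32 at 50 ppm (SE 0.092, limma adjusted p 0.0470). The call at 50 ppm was lost in 9 of 10 fits that left out an array, in which the change stayed between 0.27 and 0.35.

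Psmd6 encodes a subunit of the lid, the part of the cap that removes ubiquitin. In water at 12 weeks its log2 signals were 12.01, 11.63, 11.59, 11.63 and 11.74, and at 50 ppm they were 11.95, 12.01, 11.89, 12.38 and 12.21. The groups overlapped through water array 1. The signals at 0.5, 2 and 10 ppm ranged from 11.65 to 12.16, from 11.73 to 11.92 and from 11.72 to 12.10. The log2 change at 50 ppm was 0.37 (SE 0.10, limma adjusted p 0.0416), and it was lost in 8 of 10 fits that left out an array, with changes of 0.30 to 0.44. The second bright probe set of Psmd6 changed by 0.035 at 50 ppm, although both probe sets followed each other between mice of a group (r = 0.74, over 49 arrays).

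**Figure D1:**
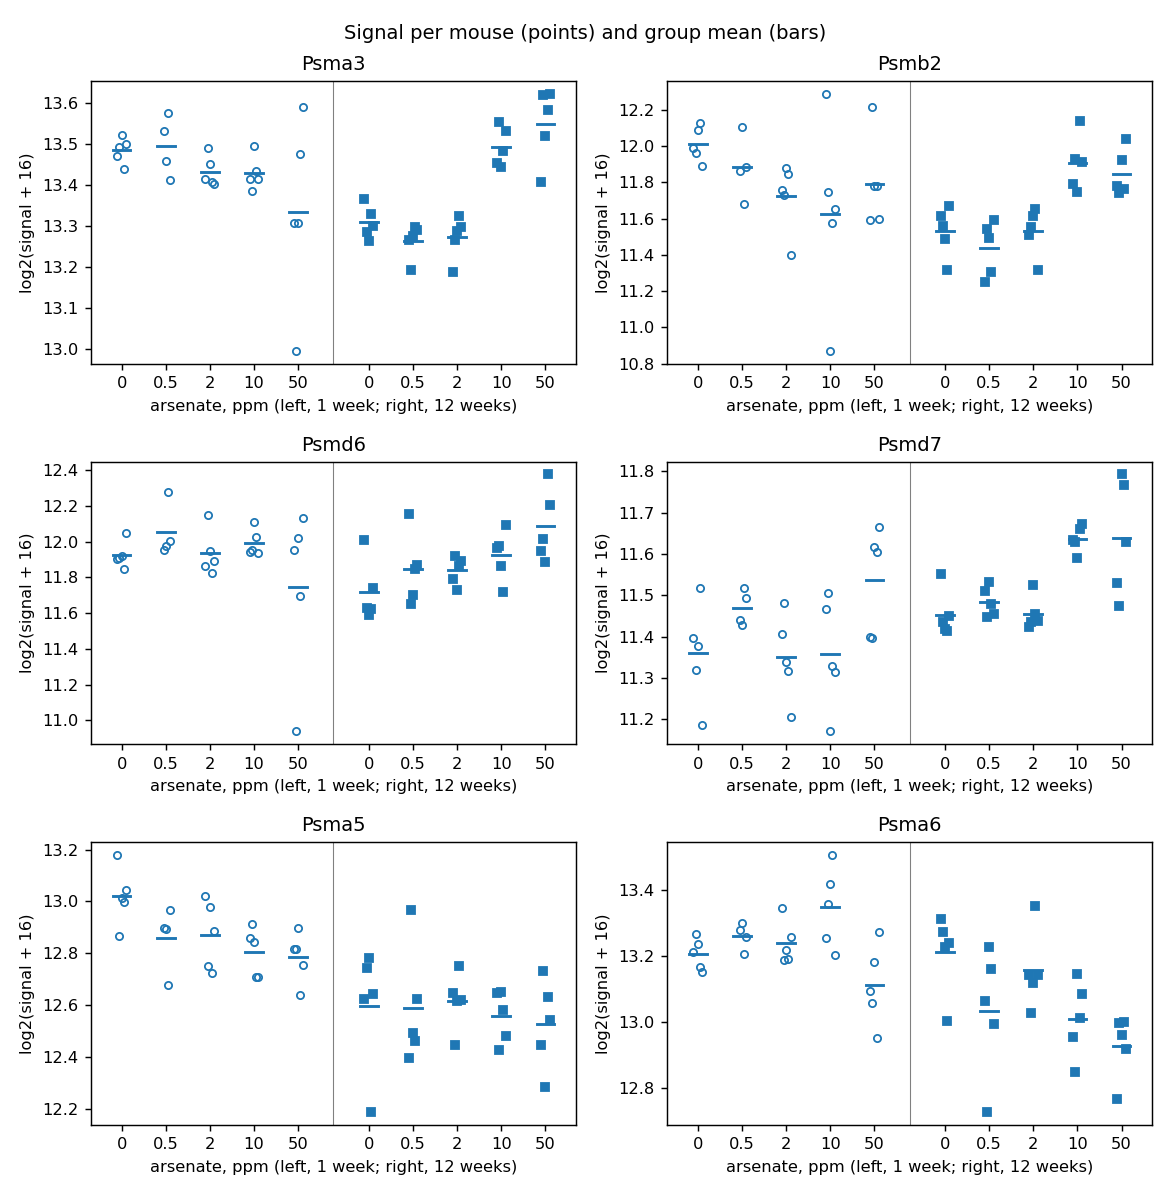
Log2(signal + 16) of 6 proteasome genes (vertical axis) by arsenate dose in ppm (horizontal axis), with 1 week on the left (open circles) and 12 weeks on the right (filled squares); each point is 1 mouse and each bar a group mean. At 12 weeks all mice at 10 and 50 ppm lie above all water mice for Psma3 and Psmb2, and Psma5 and Psmb2 are lower in 12-week than in 1-week water.

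Over the ranked doses at 12 weeks, 4 of the 38 genes rose with dose and none fell. That is 10.5% of the genes, beside 2.92% of all genes tested that were called higher and 2.33% called lower. The slope per dose step was 0.07 for Psma3 and 0.11 for Psmb2 (limma adjusted p 0.0113 for both). It was 0.08 for Psmd6 (limma adjusted p 0.0359) and 0.05 for Psmd7 (limma adjusted p 0.0459). Psmd7 encodes the lid partner of the deubiquitinase Psmd14. Its 12-week signals in water were 11.55, 11.44, 11.42, 11.41 and 11.45. At 10 ppm they were 11.64, 11.63, 11.59, 11.66 and 11.67, all above water, and at 50 ppm 11.53, 11.48, 11.79, 11.77 and 11.63, which overlapped with water. Psma3 and Psmb2 were called in all 25 fits that left out an array, Psmd6 in 15 and Psmd7 in 7. With the poly-A level as a covariate no gene of the family was called, while the slopes of Psma3 and Psmb2 were 0.07 and 0.13 (limma adjusted p 0.361 and 0.318). With the mean of all probe sets only Psmb2 was called, and the slopes of Psma3, Psmd6 and Psmd7 were 0.03, 0.04 and 0.08 (limma adjusted p 0.598, 0.345 and 0.124).

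Other genes of the family moved at 50 ppm and 12 weeks without passing the test. The largest mean difference was in Psmc6, a cap ATPase, at 0.60 (95% interval 0.05 to 1.15, limma adjusted p 0.165). Its signals were 10.18, 9.02, 9.31, 9.52 and 9.59 in water and 10.26, 10.14, 9.50, 10.62 and 10.12 at 50 ppm, and the groups overlapped. At 50 ppm for 1 week Psmc6 changed by -0.29, and its change at 12 weeks minus that at 1 week was 0.90. Neither was called. Psma6, an alpha subunit, had the largest difference downward at -0.28 (SE 0.087, limma adjusted p 0.0583). Its water signals were 13.31, 13.27, 13.23, 13.00 and 13.24, and the signals at 50 ppm were 12.77, 13.00, 12.96, 13.00 and 12.92, all below water. The 3 bright probe sets of Psma6 differed, with changes from -0.28 to 0.02. Psma1 and Psmb10 followed with -0.24 and -0.18. By class the median change was -0.07 for the alpha ring, 0.04 for the beta ring, -0.12 for the immunoproteasome genes, 0.02 for the ATPases and 0.12 for the other cap subunits.

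**Figure D2:**
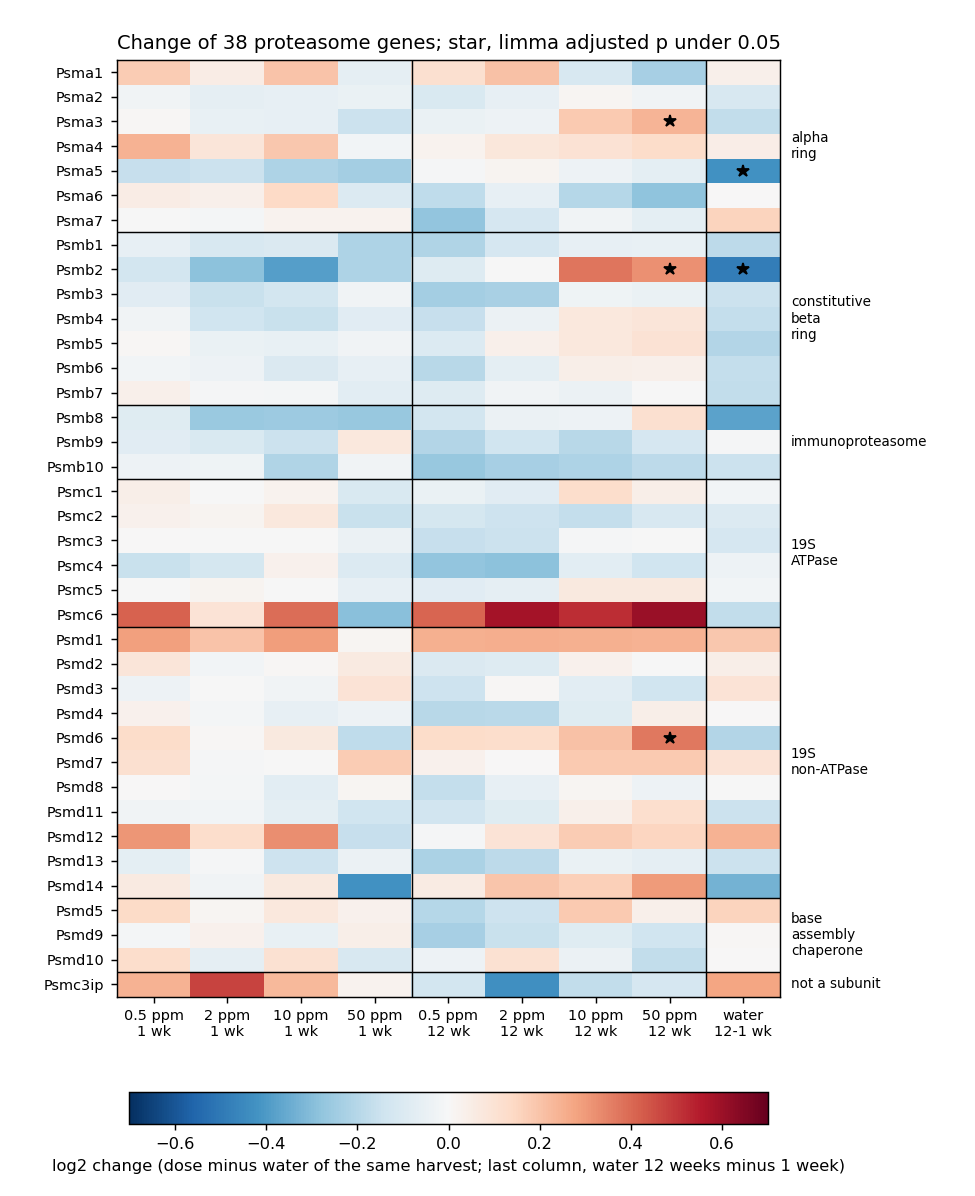
Log2 change (colour, blue lower and red higher) of the 38 tested genes (rows, ordered by class) for each dose against water of the same harvest and for 12-week against 1-week water (columns); stars mark a limma adjusted p under 0.05. Stars stand at Psma3, Psmb2 and Psmd6 for 50 ppm at 12 weeks and at Psma5 and Psmb2 for water, and no other cell has one.

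The lower doses at 12 weeks changed no gene of the family past the threshold. At 0.5 ppm 0 of 38 genes were called, beside 0.527% of all genes, and 11 of the 38, 28.9%, had an unadjusted limma p under 0.05, beside 19% of all genes. The 3 smallest were those of Psma7 (-0.28, SE 0.092), Psmb3 (-0.24, SE 0.083) and Psmb1 (-0.21, SE 0.078), with limma adjusted p of 0.109, 0.123 and 0.141. The median change was -0.126 over the 38 genes and 0.001 over all genes, and 31 of 38 genes were below 0. All 7 constitutive beta genes were lower, with a median of -0.16, and all 3 immunoproteasome genes, with a median of -0.20. Without array 1 of that group the median of the 38 genes was -0.083. In the same group all 12 urothelium markers were below water, with a median of -0.232, while all 6 fibroblast markers (median 0.275) and all 5 endothelium markers (median 0.333) were above. The urothelium marker mean ranged from 13.55 to 13.75 at 0.5 ppm and from 13.79 to 13.90 in water. With that mean as a covariate, chosen after seeing the data, the median change of the 38 genes was -0.05.

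At 2 ppm for 12 weeks no gene of the family was called, beside 0.0137% of all genes, and 6 of the 38, 15.8%, had an unadjusted limma p under 0.05, beside 9.91% of all genes. The smallest p belonged to Psmb3 (-0.23), Psmc3ip (-0.43) and Psmc6 (0.58), with limma adjusted p of 0.451, 0.451 and 0.483. At 10 ppm for 12 weeks the count was again 0, beside 0.335% of all genes, with 6 of 38 genes under an unadjusted 0.05 beside 16% of all genes, led by Psmb2, Psma3 and Psmd7 (0.18, SE 0.066, limma adjusted p 0.177). The median changes of the 38 genes were -0.058 at 2 ppm and 0.002 at 10 ppm.

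After 1 week no gene of the family was called at any dose or over the ranked doses. The share of all genes called was 0.0479% at 0.5 ppm, 0% at 2 ppm, 0.78% at 10 ppm, 0.335% at 50 ppm and 0.267% over the ranked doses. At 2 ppm, where limma called none of the 14619 genes, 867 had an unadjusted p under 0.05. In that group arrays 3, 4 and 5 had the lowest RNA integrity number of the series, 7.2, and arrays 1 and 2 had 9.7 and 9.5. Of the 38 genes, the number with an unadjusted limma p under 0.05 was 1 at 0.5 ppm, 1 at 2 ppm, 5 at 10 ppm, 6 at 50 ppm and 5 over the ranked doses. As shares these were 2.63%, 2.63%, 13.2%, 15.8% and 13.2%, against 12.5%, 5.93%, 17.1%, 11.6% and 9.73% of all genes. The 95% intervals stayed within a 1.5-fold change for 36 genes at 0.5, 2 and 50 ppm each and for 35 at 10 ppm. The exceptions were Psmc6 and Psmd12 at 0.5 ppm, Psmb2 and Psmc3ip at 2 ppm, Psmb2, Psmc6 and Psmd12 at 10 ppm, and Psmc6 and Psmd14 at 50 ppm.

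The smallest p at 50 ppm for 1 week belonged to the alpha subunit Psma5 (-0.24, SE 0.078), to Psmb1 (-0.21, SE 0.088) and to Psmd14, the deubiquitinase of the lid (-0.42, SE 0.18), with limma adjusted p of 0.197, 0.326 and 0.339. Psma5 was also the gene with the smallest p over the ranked doses, with a slope of -0.05, and at 10 ppm, with a change of -0.21. Its signals were 13.18, 12.87, 13.01, 13.00 and 13.04 in water, 12.86, 12.91, 12.84, 12.71 and 12.71 at 10 ppm, and 12.82, 12.82, 12.90, 12.64 and 12.75 at 50 ppm. Water array 2 lay within both treated groups. Psmd14 was low on array 2 of the 50 ppm group, at 10.36, and between 11.06 and 12.08 on its other arrays, against 11.56 to 11.87 in water. The largest differences upward at 50 ppm were in Psmd7 (0.18), Psmd3 (0.10) and Psmb9 (0.07). At 2 ppm the smallest p was that of Psmc3ip, with a change of 0.47 and a limma adjusted p of 0.606. At 0.5 ppm Psmc6 led with 0.41, followed by Psmd1 with 0.29, and their limma adjusted p were 0.336 and 0.402.

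The inducible genes did not pass the test in any comparison. Psmb8, the immunoproteasome counterpart of Psmb5, had 1-week signals of 10.53, 10.43, 10.61, 10.87 and 10.34 in water. They were 10.57, 10.76, 10.16 and 10.39 at 0.5 ppm and 10.52, 10.23, 10.05, 10.48 and 10.22 at 2 ppm. At 10 ppm they were 10.56, 10.48, 9.88, 10.37 and 10.21, and at 50 ppm 10.08, 10.73, 10.15, 10.34 and 10.15. Every treated group overlapped with water, and the changes at 2, 10 and 50 ppm were each between -0.27 and -0.26, with limma adjusted p of 0.872, 0.353 and 0.473. At 12 weeks the group means of Psmb8 were 10.18 in water (SD 0.29), 10.05 at 0.5 ppm (SD 0.28), 10.14 at 2 ppm (SD 0.31), 10.15 at 10 ppm (SD 0.28) and 10.29 at 50 ppm (SD 0.21), each with n = 5.

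Psmb5, the subunit that Psmb8 replaces and the site of the chymotrypsin-like activity, changed by -0.02 at 50 ppm for 1 week (95% interval -0.24 to 0.19) and by 0.10 at 50 ppm for 12 weeks (95% interval -0.12 to 0.32). Its 1-week water signals were 12.43, 12.50, 12.56, 12.58 and 12.37, and those at 50 ppm were 12.35, 12.85, 12.49, 12.44 and 12.20. Its 12-week signals were 12.19, 12.56, 12.23, 12.26 and 12.19 in water and 12.22, 12.38, 12.44, 12.26 and 12.62 at 50 ppm. Water and 50 ppm overlapped at both harvests.

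Psmb9, the counterpart of Psmb6, had 1-week signals of 9.51, 9.77, 9.82, 10.07 and 9.20 in water and 9.67, 10.04, 9.61, 9.81 and 9.61 at 50 ppm, a change of 0.07 (95% interval -0.22 to 0.37). At 12 weeks its signals were 9.44, 10.04, 9.71, 9.56 and 9.56 in water and 9.50, 9.26, 9.81, 9.42 and 9.74 at 50 ppm, a change of -0.12 (95% interval -0.46 to 0.22). Psmb6, which carries the caspase-like site, changed by -0.06 and by 0.04 at 50 ppm at these harvests. Its 12-week signals were 12.56, 12.81, 12.56, 12.61 and 12.65 in water and 12.70, 12.77, 12.75, 12.43 and 12.71 at 50 ppm, and the groups overlapped.

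Psmb10, the counterpart of Psmb7, had 12-week signals of 10.52, 11.00, 10.69, 10.59 and 10.51 in water. They were 9.97, 10.41, 10.59, 10.44 and 10.57 at 0.5 ppm, 10.51, 10.46, 10.21, 10.43 and 10.53 at 2 ppm, 10.34, 10.46, 10.34, 10.64 and 10.46 at 10 ppm and 10.58, 10.33, 10.72, 10.28 and 10.48 at 50 ppm. The changes against the shared water group were -0.27, -0.23, -0.21 and -0.18 in that order of dose, with limma adjusted p of 0.206, 0.504, 0.357 and 0.334, and each group overlapped with water. Psmb7, which carries the trypsin-like site, changed by -0.09, -0.02, -0.04 and -0.002 at the same doses. After 1 week Psmb10 changed by -0.21 at 10 ppm, where array 3 stood at 9.95 and the others between 10.63 and 10.90, and by -0.02 at 50 ppm.

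The difference between each inducible gene and its constitutive counterpart was taken on each array, which removes what both share on it, and compared with water by two-sided exact permutation tests. Of 27 such tests none passed after adjustment over the 27, and the smallest adjusted p was 0.286. The smallest p the tests allow is 0.00794, and 0.0159 for 0.5 ppm at 1 week. A single test at that floor would not pass after adjustment over the 27. The lack of calls therefore cannot decide whether a single pair shifted. Psmb8 minus Psmb5 averaged -1.93 in 1-week water (SD 0.14, n = 5), -2.03 at 0.5 ppm (SD 0.13, n = 4), -2.14 at 2 ppm (SD 0.20, n = 5), -2.14 at 10 ppm (SD 0.089, n = 5) and -2.18 at 50 ppm (SD 0.13, n = 5). The shift at 50 ppm was -0.24 (exact p 0.0159, adjusted p 0.286). The sign of these means reflects different probe sets and not abundance. Psmb10 minus Psmb7 at 12 weeks was lower than water by means between -0.21 and -0.17 at the 4 doses, with exact p from 0.0397 to 0.119. Psmb9 minus Psmb6 shifted by 0.13 at 50 ppm for 1 week and by -0.15 at 50 ppm for 12 weeks, with exact p of 0.333 and 0.27.

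**Figure D3:**
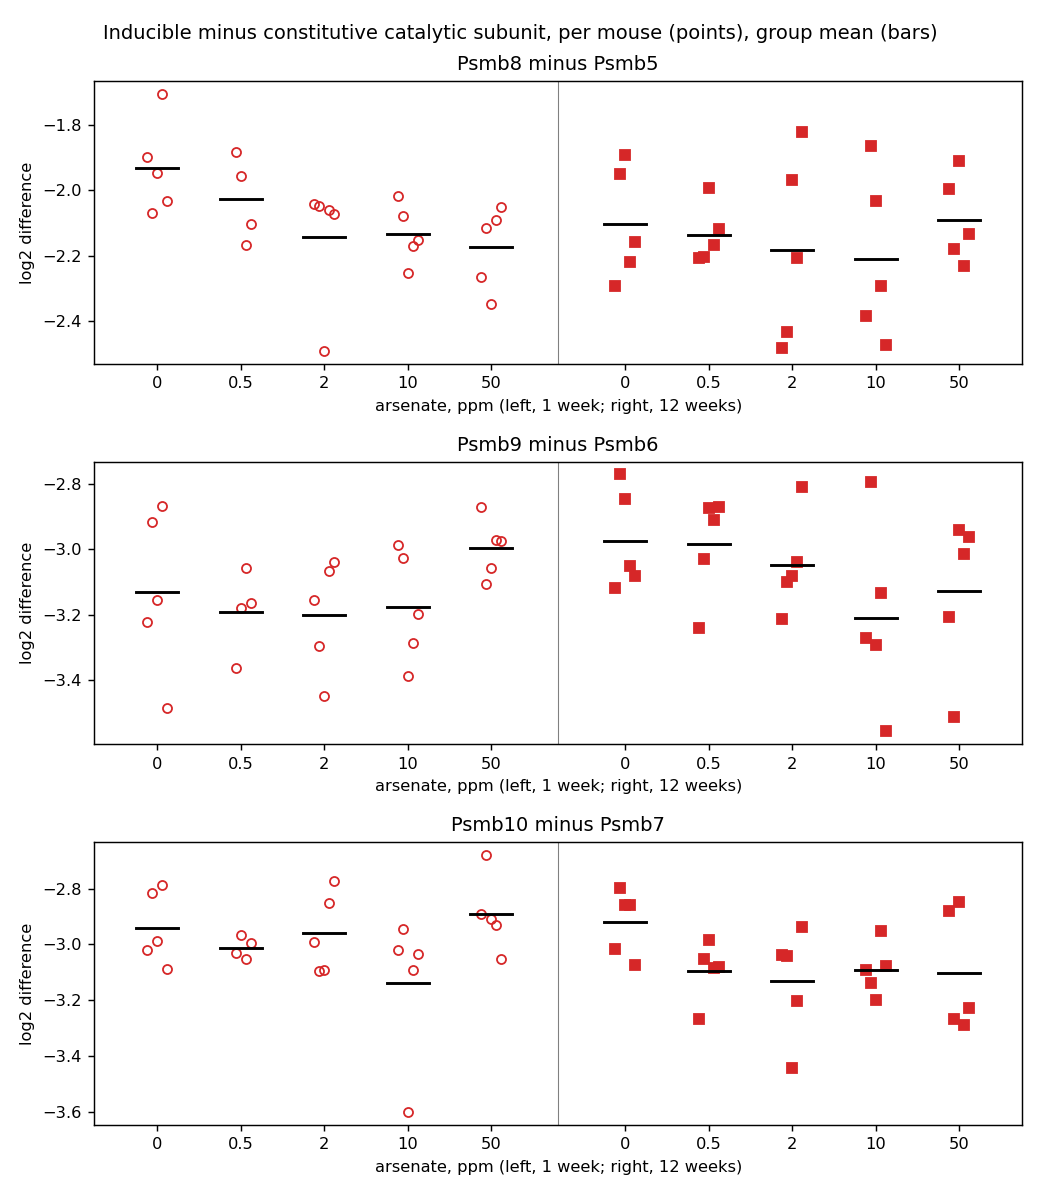
Log2 signal of an inducible catalytic subunit minus that of its constitutive counterpart on the same array (vertical axis) by arsenate dose in ppm (horizontal axis), 1 week on the left (open circles) and 12 weeks on the right (squares); points are mice and bars group means. Psmb8 minus Psmb5 averages -1.93 in 1-week water and -2.18 at 50 ppm, and the treated points overlap with the water points in each panel.

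In water, 2 of the 38 genes were lower at 12 weeks than at 1 week, Psma5 and Psmb2, which is 5.26% of the genes beside 7.09% of all genes tested that were called lower. No gene of the family was called higher, beside 6.27% of all genes. Psma5 had 12-week water signals of 12.62, 12.74, 12.78, 12.19 and 12.64, all below the 1-week water signals given above, and the change was -0.43 (SE 0.095, 0.744-fold, limma adjusted p 0.00192). Its second bright probe set gave -0.18. Psmb2 had 1-week water signals of 11.99, 11.96, 12.09, 12.13 and 11.89, all above its 12-week water signals, with a change of -0.48 (SE 0.14, 0.716-fold, limma adjusted p 0.0127). Both calls held in all 10 fits that left out an array. With the mean of all probe sets the change of Psma5 was -0.34 (limma adjusted p 0.0748), and with the Gapdh difference as a covariate that of Psmb2 was -0.45 (limma adjusted p 0.0759). All 7 constitutive beta genes were below 0 in this contrast, with a median of -0.17, and the median over the 38 genes was -0.067 against 0.020 over all genes.

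Markers of other cells also differed between the water groups. All 7 liver, all 6 fibroblast, all 8 smooth muscle, 10 of 12 leukocyte and 3 of 4 skeletal muscle markers had a lower mean at 12 weeks, and the limma test called 6, 5, 3, 3 and 3 of them lower. Of 4 mesothelium markers 1 was called higher. Adjusted for the mean of the liver markers, a covariate chosen after seeing the data, neither Psma5 nor Psmb2 was called, at -0.41 for Psma5 (limma adjusted p 0.106) and -0.34 for Psmb2 (limma adjusted p 0.378). That mean did not overlap between the water groups, at 7.57 to 10.09 and 6.62 to 6.95. The lost calls therefore cannot decide whether the genes changed. With the urothelium marker mean as a covariate 9 genes of the family were called lower. The share of all genes called under that covariate is not given here, so the count does not single out the family.

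The dose effect was also compared between harvests, as the change at 12 weeks minus that at 1 week. At 50 ppm 2 of 38 genes, 5.26%, were called, both higher, beside 3.6% of all genes called higher and 3.76% called lower. They were Psma3, with a difference of 0.39 (SE 0.090, limma adjusted p 0.00785), and Psmd6, with 0.55 (SE 0.18, limma adjusted p 0.0484). Psma3 had 1-week signals of 13.47, 13.49, 13.52, 13.44 and 13.50 in water and 13.31, 13.00, 13.31, 13.48 and 13.59 at 50 ppm. Psmd6 had 11.90, 11.91, 11.92, 11.85 and 12.05 in water and 11.96, 10.94, 12.02, 11.69 and 12.14 at 50 ppm, of which array 2 was the lowest for both genes. The difference of Psma3 was called in all 20 fits that left out an array, at 0.31 without array 2 of that group. The second, dimmer probe set of Psma3 ran the other way, with changes of 0.33 at 1 week and 0.14 at 12 weeks and a difference of -0.19. With the mean of both probe sets the difference of Psma3 was 0.10 (limma adjusted p 0.746), and with the poly-A level as a covariate 0.39 (limma adjusted p 0.0541). Of 13 alternative settings these 2 ended the call of Psma3 and 6 ended that of Psmd6. Psmd6 was called in 6 of the 20 fits and was 0.34 (limma adjusted p 0.14) without that array. At 10 ppm Psmb2 alone was called, 2.63% of the genes beside 0.937% of all genes called higher and 0.438% called lower, with a difference of 0.76 (SE 0.19, limma adjusted p 0.0289). Its 1-week signals at 10 ppm were 12.29, 11.75, 10.87, 11.57 and 11.66, the widest of its groups. The call of Psmb2 was lost in 5 of 20 fits that left out an array: arrays 3 or 4 of that group, arrays 3 or 4 of 1-week water, or array 4 of 12-week water. Without array 3 of the 10 ppm group the difference of Psmb2 was 0.57 (limma adjusted p 0.0696). Adjusted for the liver markers' mean it was 0.67 (limma adjusted p 0.104), and with the poly-A level 0.80 (limma adjusted p 0.0549). At 0.5 ppm none of the 38 genes was called, beside 4.61% of all genes, with 7.89% of the 38 under an unadjusted limma p of 0.05, beside 19.6% of all genes, and the smallest adjusted p at 0.0541 for Psmd5. At 2 ppm none was called, beside 0% of all genes, of which 869 had an unadjusted limma p under 0.05. In the family 1 gene had one, Psmc3ip, which encodes no subunit and whose difference was -0.90 (SE 0.20). The 1-week 2 ppm group in that contrast held the arrays of lowest RNA integrity, as given above.

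Mice of the same group differed in their proteasome genes in an ordered way. After group means were taken off, the 7 constitutive beta genes rose and fell together over the 49 arrays, with a median correlation of 0.78 over their 21 pairs (0.38 to 0.89), and so did the 3 immunoproteasome genes, with 0.79. The median was 0.14 over the 21 pairs of the alpha ring, -0.09 over the 15 of the ATPases and 0.14 over the 55 of the other cap subunits. Over all pairs of genes tested it was 0.00, with 5th and 95th percentiles of -0.46 and 0.47. These correlations are descriptions without a test. The points share their arrays and the scaling of each array.

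A split of the 38 genes into 2 blocks by these correlations, made on the data, put all 10 beta genes, the inducible ones included, into a block of 20. Its other genes were Psma2, Psma7, Psmc3, Psmc5, Psmd2, Psmd3, Psmd4, Psmd8, Psmd13 and the chaperone gene Psmd9. Within that block the median correlation was 0.61 over 190 pairs. The block of 18 held Psma3, Psmd6, Psmd7, Psma5, Psma6, Psmc6, Psmd1, Psmd12 and Psmd14 among others. Its genes were less alike, with a median of 0.24 over 153 pairs (-0.31 to 0.91). With the constitutive beta genes their median correlation was -0.22, from -0.80 to 0.36. Psmd7 ranged from -0.13 with Psmb3 to 0.36 with Psmb2. Of the 4 genes that rose with dose at 12 weeks, Psma3, Psmd6 and Psmd7 lay outside the block of the beta ring and Psmb2 within it.

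**Figure D4:**
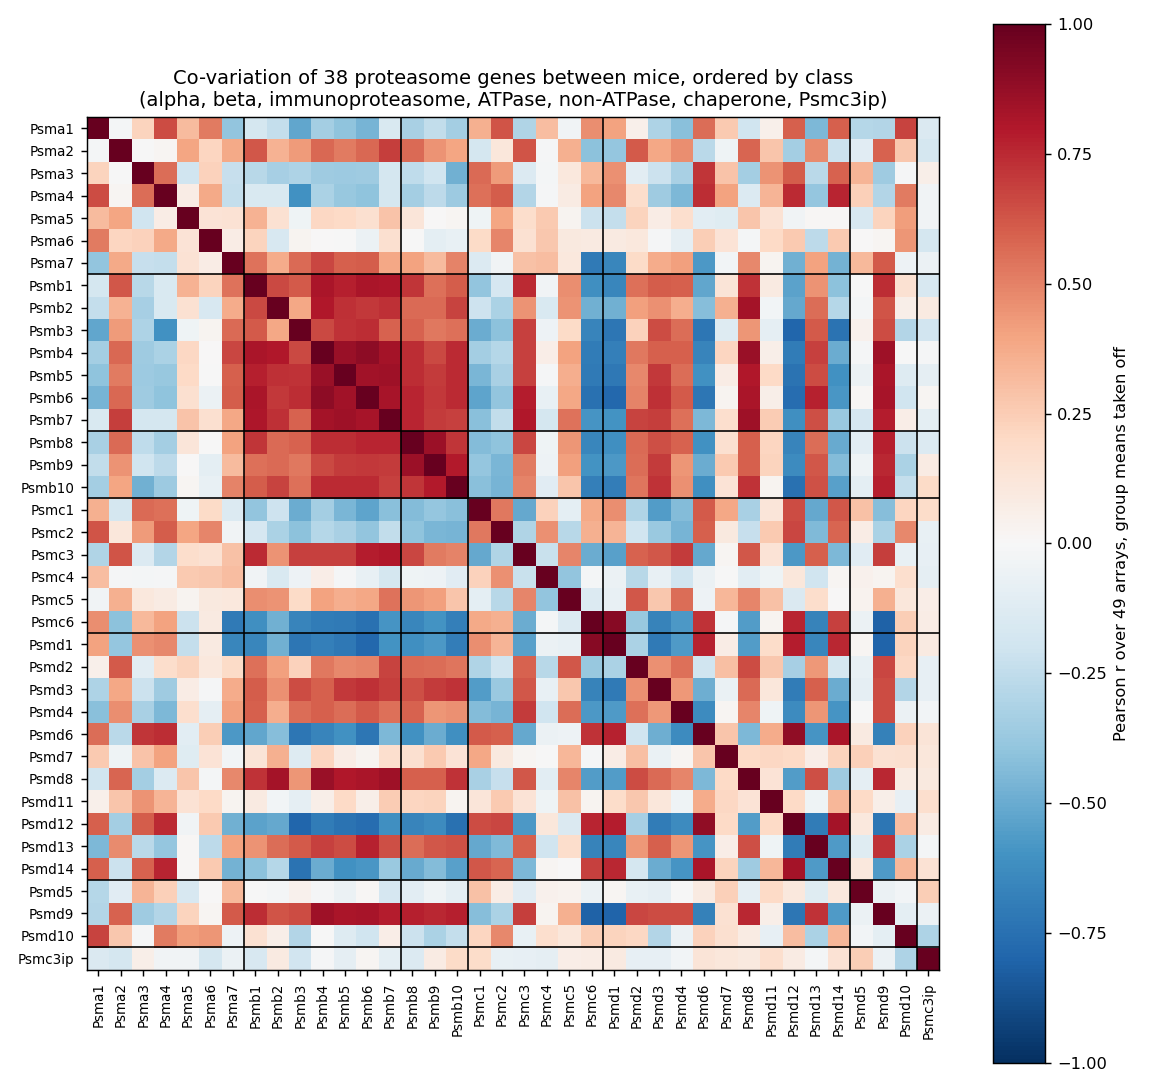
Pearson correlation (colour, blue negative and red positive) between the 38 tested genes over 49 arrays after group means were taken off, with genes ordered by class on both axes and lines between classes. The constitutive beta and immunoproteasome genes form a red square, with class medians of 0.78 and 0.79, and Psmc6, Psmd1, Psmd6, Psmd12 and Psmd14 are blue against them.

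Array properties moved with the beta ring and with 5 cap genes of the block of 18. The median signal of an array correlated negatively with each of the 7 constitutive beta genes (median -0.60, from -0.66 to -0.38), and positively with Psmd1 (0.55), Psmc6 (0.43), Psmd12 (0.41), Psmd6 (0.33) and Psmd14 (0.33). The urothelium marker mean correlated positively with each constitutive beta gene (median 0.54) and negatively with those 5 cap genes (-0.38 to -0.28). The endothelium marker mean correlated negatively with the beta genes (median -0.44) and positively with the same 5 cap genes (0.44 to 0.55). The other genes of the block of 18 were mixed. They ranged from -0.27 (Psma5) to 0.52 (Psmc1) for the array median and from -0.36 (Psma1) to 0.20 (Psmd5) for the urothelium mean. For the endothelium mean they ranged from -0.40 (Psmd5) to 0.52 (Psma1). The poly-A level correlated positively with the beta genes (median 0.30, from 0.05 to 0.55) and negatively with the 5 cap genes (-0.51 to -0.30), and the Gapdh difference between 3′ and 5′ probe sets likewise (median 0.38 for the beta genes, -0.34 to -0.21 for the 5). After quantile normalization, which gives all arrays the same distribution, the median was 0.63 for the beta ring, with a pair as low as -0.14, and 0.81 for the immunoproteasome genes. The part of array signal and tissue makeup in these blocks was not otherwise tested.

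For the 6 catalytic genes the relation to leukocyte, urothelium and smooth muscle markers was tested within groups at each harvest by permutation, 36 relations in all, chosen after seeing the data. At 12 weeks, over 25 arrays, Psmb9 followed the leukocyte markers with r = 0.52 (permutation p 0.0017, adjusted p 0.021), rho = 0.56 (permutation p 0.0042, adjusted p 0.051) and r = 0.52 without the 2 arrays farthest out. Psmb5 followed the urothelium markers with r = 0.70 (permutation p 0.00025, adjusted p 0.0045) and rho = 0.68 (permutation p 0.001, adjusted p 0.019). Its r was 0.57 without the 2 arrays farthest out in the urothelium markers. Psmb7 followed them with r = 0.62 (permutation p 0.00023, adjusted p 0.0045), rho = 0.69 (permutation p 1e-04, adjusted p 0.0036) and r = 0.60 without those 2 arrays. None of the 18 relations at 1 week passed after adjustment, by r or by rho. The smallest adjusted p were those of Psmb6 with the urothelium markers for r (0.56, permutation p 0.021, adjusted p 0.15) and of Psmb8 with the urothelium markers for rho (0.53, permutation p 0.019, adjusted p 0.13).

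**Figure D5:**
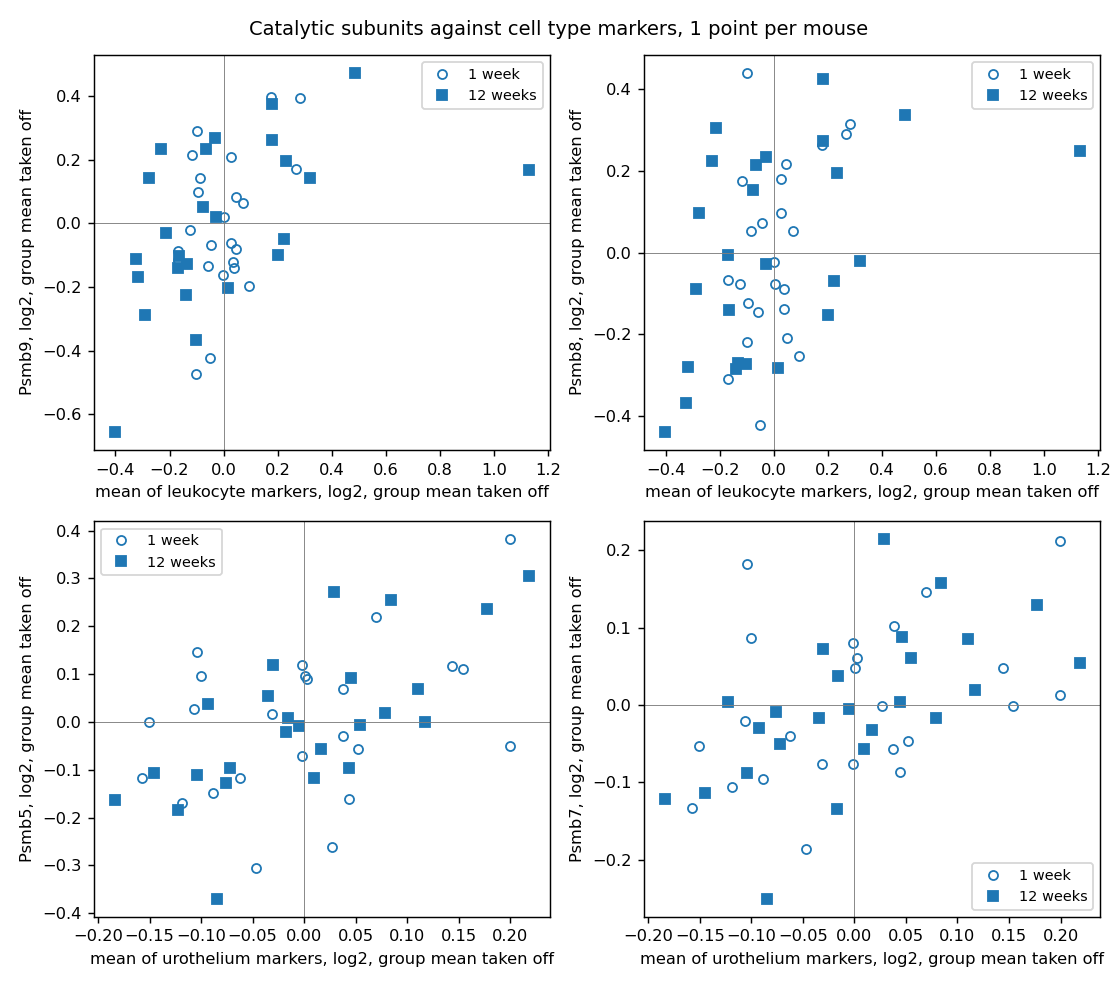
Log2 signals of 4 catalytic genes (vertical axes) against the mean log2 signal of leukocyte or urothelium markers (horizontal axes), with group means taken off both; open circles are mice of 1 week and squares mice of 12 weeks. At 12 weeks Psmb9 follows the leukocyte markers (r = 0.52), and Psmb5 (r = 0.70) and Psmb7 (r = 0.62) follow the urothelium markers.

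Partner genes outside the family were read from lists. The alternative settings and the fits without an array were read for the 38 genes only, so the partner calls lack these checks. At 50 ppm for 12 weeks 2.29% of all genes tested were called higher, and over the ranked doses 2.92% higher and 2.33% lower. The shares were 3.6% higher and 3.76% lower for the difference between harvests at 50 ppm. For 12-week against 1-week water they were 6.27% and 7.09%. Of 15 activators, inhibitors and assembly or associated factors, 13 were tested. At 50 ppm for 12 weeks 1 of them was called, Psme1, a subunit of the interferon-inducible cap that opens the core, which was lower by a log2 change of -0.30 (SE 0.083, limma adjusted p 0.0391), where 1.77% of all genes were called lower. It also fell over the ranked doses, with a slope of -0.07 (limma adjusted p 0.0222), and its effect at 50 ppm differed between harvests by -0.43 (SE 0.11, limma adjusted p 0.0182). Sem1, a small subunit of the lid, was lower in 12-week than in 1-week water by -0.21 (SE 0.068, limma adjusted p 0.0298). No gene of this list was called at any dose for 1 week. The list's median change at 50 ppm for 12 weeks was -0.084.

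Of 13 genes of proteasome transcription control and of the Nfe2l2 response, 12 were tested. At 50 ppm for 12 weeks Hmox1, the stress-induced heme oxygenase, rose by 0.66 (SE 0.15, limma adjusted p 0.0201), and its slope over the ranked doses was 0.15 (limma adjusted p 0.0158). The quinone reductase gene Nqo1 rose over the ranked doses with a slope of 0.15 (limma adjusted p 0.0229), and in 12-week against 1-week water by 0.49 (SE 0.13, limma adjusted p 0.0108). Nfe2l1 and Nfe2l2 changed by 0.13 (SE 0.11) and 0.14 (SE 0.12) at 50 ppm for 12 weeks, with limma adjusted p of 0.492 and 0.489. Of 15 ubiquitin and delivery genes 9 were tested. Uba6, an enzyme that activates ubiquitin, rose at 50 ppm for 12 weeks by 0.72 (SE 0.17, limma adjusted p 0.025) and over the ranked doses with a slope of 0.15 (limma adjusted p 0.0307). In the difference between harvests at 50 ppm 2 of these 9 genes were called higher, beside 3.6% of all genes. In 12-week against 1-week water 1 of the 9 was called higher and 1 lower, beside 6.27% and 7.09% of all genes. Of 23 antigen presentation and interferon genes, Psme1 included, 20 were tested, and at 50 ppm for 12 weeks Psme1 was the only one called. Of these 20 genes Psme1 and Irf9, a subunit of the interferon-response factor, had a lower effect at 50 ppm at 12 weeks than at 1 week, with a difference of -0.54 for Irf9 (SE 0.15, limma adjusted p 0.0237). In 12-week against 1-week water Nlrc5, a regulator of antigen presentation genes, and Stat2, a signal transducer of interferon, were higher, by 0.50 (SE 0.12, limma adjusted p 0.00298) and 0.45 (SE 0.13, limma adjusted p 0.0137).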

How the data were processed

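Signals of 49 arrays, each the RNA of 1 mouse, were read from the series' value table. The authors deposited an intensity for each probe set on a linear scale. The submitters' processing notes name GCOS 1.0, without its settings. The 2% trimmed mean was 500.003 to 500.004 on every array, so the authors' values had been scaled to a common mean, while array medians still spanned 0.461 on the log2 scale. Of 45101 probe sets, 64 were controls, 34958 had a single gene and 932 several in the platform annotation. Only single-gene probe sets were used, the brightest per gene.

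Values were taken as log2(signal + 16). Genes above the 40th percentile of their array in at least 4 arrays were kept. Dose effects were fitted within each harvest in R 4.3.3 by limma 3.58.1, using lmFit with 1 mean per group and moderated variances (eBayes, trend on). Water and harvest contrasts used all 49 arrays. P-values were adjusted by Benjamini-Hochberg over all 14619 genes tested. The fit was tested on simulated data. Depth is not counted for arrays, and their number limits precision. RNA integrity numbers were 7.2 to 9.8 and missing for 2 arrays. The value of 7.2 was that of arrays 3, 4 and 5 of 2 ppm at 1 week. Those missing were of arrays 1 and 2 of 10 ppm at 1 week. Permutation tests of relations drew 100000 orders within groups. Other software versions were 1.17.8 for data.table, with Python 3.11.15 and, for the figures, matplotlib 3.10.9.

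Named with values were the 6 catalytic exchange genes, every member called, and the extremes of mean and spread. By the same rule, up to 3 members of smallest p were named where none was called, and several of the largest changes each way at 50 ppm. Members, lists and this rule were chosen with earlier results of these data known. Alternatives covered the offset, normalization, filter, choice of probe set, array weights, covariates, a joint fit, a replicate block and leaving out arrays. The liver and urothelium covariates and the marker relations were chosen after seeing the data.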

Additional observations from a re-analysis of the deposited data

Results flagged for a closer look

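Among 140 groups of values looked at, 10 held an array far from the others of its group, and chance gives about 1 in 20. Array 1 of 0.5 ppm at 12 weeks was low for Psmb9 (8.80, others 9.48 to 9.72), for Psmb6 (12.04, others 12.51 to 12.59) and for the mean of the core genes (12.43, others 12.63 to 12.69). In 12-week water, array 2 was high for Psmb5 (12.56, others 12.19 to 12.26), array 1 was high for Psmd7 (11.55, others 11.41 to 11.45) and array 4 was low for Psma5 (12.19, others 12.62 to 12.78). Array 4 of 50 ppm at 12 weeks was low for Psmb6 (12.43, others 12.70 to 12.77), and array 4 of 2 ppm at 12 weeks was high for the mean of the regulatory genes (11.79, others 11.70 to 11.71). At 1 week, array 2 of 50 ppm was high for Psmb10 (11.21, others 10.63 to 10.75), and array 4 of 0.5 ppm was high for Psmd6 (12.28, others 11.96 to 12.00).

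The change against water differed between harvests, by the limma test of that difference, for Psmb2 at 10 ppm (0.76) and for Psma3 (0.39) and Psmd6 (0.55) at 50 ppm.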

How the results depend on the processing

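Counts of genes called give the number of the 38 past an adjusted p under 0.05. The share of all genes called in each alternative setting is not given beside them. A count that moved is therefore not a result about the family alone. At 50 ppm for 12 weeks the count was 3 and became 1 with the RNA integrity number as covariate and 0 with the poly-A level, the liver marker mean or the mean of all probe sets. Over the ranked doses at 12 weeks it was 4 and became 0 with the poly-A level and 1 with the mean of all probe sets. At 10 ppm it was 0 and became 1 at 12 weeks with the Gapdh difference, array weights or quantile normalization, and 1 at 1 week with the RNA integrity number or array weights. The fit with the RNA integrity number also drops arrays 1 and 2 of 10 ppm at 1 week, which have none. For 12-week against 1-week water the count was 2 and became 9 with array weights or the urothelium mean and 0 with the liver mean. For the difference between harvests at 50 ppm it was 2 and became 6 with the Gapdh difference, 4 with the 60th percentile filter or quantile normalization, 1 without a filter and 0 with the mean of all probe sets or the poly-A level. At 10 ppm it was 1 and became 2 with array weights and 0 with the liver mean or the poly-A level, and at 0.5 ppm it was 0 and became 1 with array weights or the 60th percentile filter. The causes were not tested. Leaving out each array in turn gave 0 to 4 at 50 ppm for 12 weeks, 2 to 6 over the ranked doses at 12 weeks, 2 to 5 for water, and 0 to 1 at 10 ppm at either harvest. For the difference between harvests it gave 1 to 5 at 50 ppm, 0 to 1 at 10 ppm and 0 to 1 at 0.5 ppm. No called change reversed its sign under any of these alternatives. Same-numbered mice of different groups did not deviate together over all genes tested (median r 0.002 over 216 pairs). The median r was -0.002 over 864 pairs of unlike number. A pairing that touches only some genes or groups was not tested by these medians. With the replicate block the change of Psmb2 (Psmb2, 50 ppm, 12 weeks) was 0.32 with a limma adjusted p of 0.0564, and the 12-week slope of Psmd7 (Psmd7, dose trend, 12 weeks) was 0.05 with 0.0562.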
